A study of Mus musculus with 58 samples.

Results

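The chemokine ligands described here are 10 genes, namely Ccl2, Ccl3, Ccl4, Ccl5, Ccl6, Ccl9, Ccl12, Cxcl2, Cxcl10 and Cxcl16, taken by symbol from the tables of raw counts. All 10 were found among the 24940 genes of the age series. The tables of the antisense oligonucleotide (ASO) experiments listed 7 of them among 10277 genes (WT mice; Ccl5, Cxcl2 and Cxcl10 not listed) and 8 among 10589 genes (SgshKO mice; Ccl5 and Cxcl2 not listed). The libraries are polyA RNA-seq of forebrain cells of C57BL/6 mice sorted as CD11b+, CD45low and CX3CR1+, a gate for microglia. The age series holds WT and SgshKO libraries at 3 weeks (3 and 4), 4 months (2 and 2) and 8 months (4 and 7), where SgshKO mice lack Sgsh, which encodes sulfamidase, an enzyme of lysosomal heparan sulfate breakdown. In the ASO experiments, the WT groups were PBS, ntc (the control ASO), and ASOs to Mitf, to Tfeb and to Tfe3 (4 libraries each), and SgshKO mice received ntc or the Mitf and Tfe3 ASOs in combination (8 libraries each). ASOs are short nucleic acids that lower the transcript they pair with. They were given once into the cerebral ventricles, and tissue was collected after 14 days. Age of the ASO mice and sex of any mouse are not in the labels, which also do not say whether the libraries of a group came from separate mice, so the p-values below measure the spread between libraries.

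Chemokines are small secreted proteins that bind receptors with 7 membrane passes and guide the movement of leukocytes along a gradient. Microglia transcribe several of them at low levels in healthy brain and raise them quickly on activation through NF-kB, interferon and immediate early factors. Isolation of microglia is itself known to raise some of these transcripts, Ccl3 and Ccl4 above all, together with immediate early genes such as Fos, Jun and Egr1. The ligands are taken below by role: Ccl3, Ccl4 and Ccl5, inflammatory CC chemokines that attract macrophages and T cells; Ccl2 and Ccl12, ligands of the monocyte receptor Ccr2; Ccl6 and Ccl9, rodent ligands of Ccr1; Cxcl2, which attracts neutrophils through Cxcr2; Cxcl10, an interferon-inducible ligand of Cxcr3; and Cxcl16, a membrane-bound ligand of Cxcr6 that can be shed and that also acts as a scavenger receptor.

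In mm10, the build of the age table, 8 of the 10 genes lie on chromosome 11 and the rest on chromosome 5. Ccl5 (83525779 to 83530518), Ccl9 (83572917 to 83578636), Ccl6 (83587886 to 83593087), Ccl3 (83647843 to 83649378) and Ccl4 (83662584 to 83664683) form one cluster, in which only Ccl4 is read from the plus strand. Ccl2 (82035577 to 82037452) and Ccl12 (82101845 to 82103399) form another, and Cxcl16 (70454389 to 70459984) lies apart. Cxcl2 (90903899 to 90905938) and Cxcl10 (92346639 to 92348889) are on chromosome 5. Cxcl16 overlaps Zmynd15, Ccl3 a longer RefSeq model of Ccl4, and Cxcl10 lies within Art3. Ccl5 overlaps the long non-coding RNA gene Gm32650, and Ccl6 the long non-coding RNA gene E230016K23Rik. The libraries keep the strand, but whether counting used it is not given in the sources used here, so reads of overlapping genes may not be fully separated. Of the 31-base words of Cxcl2 transcripts, 7.59% also occur in Cxcl3, and of Ccl9, 3.75% occur in other genes.

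Promoters from RefSeq (GRCm38.p6, the 250 bases before the start) were at hand for 6 of the 10 genes: Ccl3, Ccl6, Ccl9, Ccl12, Cxcl2 and Cxcl10. They were searched on both strands for the kappaB consensus, the AP-1 site TGANTCA, the interferon-stimulated response element (GAAA, any 2 bases, GAAA) and the E-box CACGTG, which transcription factors of the Mitf family bind. The kappaB consensus was found in 3 of the 6 (3.9% of 32851 promoters of the same length hold it), the AP-1 site in 2 (6.75%), the interferon element in 1 (2.98%) and the E-box in 0 (6.02%). 3 of the promoters are shown, those of the interferon- and NF-kB-inducible Cxcl10, of the neutrophil attractant Cxcl2, and of Ccl3, the ligand with the highest median TPM in SgshKO at 8 months, which held none of the motifs. Matches are in capitals, each sequence runs 5′ to 3′ on the strand of its gene, and a match is a description of letters, not of binding.
Cxcl10 promoter, chr5:92348890-92349139, minus strand: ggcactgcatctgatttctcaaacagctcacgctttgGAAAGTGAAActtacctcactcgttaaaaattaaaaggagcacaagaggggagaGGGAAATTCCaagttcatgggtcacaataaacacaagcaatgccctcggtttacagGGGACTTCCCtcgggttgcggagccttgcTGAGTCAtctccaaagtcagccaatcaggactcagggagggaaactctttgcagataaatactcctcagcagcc
Cxcl2 promoter, chr5:90903649-90903898, plus strand: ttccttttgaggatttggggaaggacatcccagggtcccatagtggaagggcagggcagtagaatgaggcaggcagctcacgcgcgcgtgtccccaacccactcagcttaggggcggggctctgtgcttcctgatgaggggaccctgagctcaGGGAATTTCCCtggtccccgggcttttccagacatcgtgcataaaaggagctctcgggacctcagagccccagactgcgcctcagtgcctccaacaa
Ccl3 promoter, chr11:83649379-83649628, minus strand: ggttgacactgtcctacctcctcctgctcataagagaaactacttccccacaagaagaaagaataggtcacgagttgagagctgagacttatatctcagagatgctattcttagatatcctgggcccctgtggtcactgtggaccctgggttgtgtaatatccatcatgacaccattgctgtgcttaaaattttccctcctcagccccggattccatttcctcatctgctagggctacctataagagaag
In Cxcl10 the capitals mark, in order, the interferon element GAAAGTGAAA (213 to 204 bases before the start), the kappaB matches GGGAAATTCC (159 to 150) and GGGACTTCCC (103 to 94), and the AP-1 site TGAGTCA (74 to 68). In Cxcl2 they mark a pair of overlapping kappaB matches, 97 to 88 and 96 to 87 bases before the start. In the promoter of Ccl9 the script found 1 kappaB match (35 to 26) and 1 AP-1 site (53 to 47).

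Depth ran from 8191508 to 27106584 counts per library in the age series, from 14372015 to 30378870 in the WT and from 12517838 to 30431437 in the SgshKO ASO libraries. The 10 microglial markers (among them P2ry12 and Tmem119) summed to 29322 to 55354 CPM (counts scaled to the library total and its TMM factor) in every age library. Their sums were lower in SgshKO, where 2, 7 and 7 of the 10 were called lower at the 3 ages and 2 were called higher at 8 months. Over all genes 3.72%, 9.26% and 18.9% were called lower at these ages, and 21.6% higher at 8 months. 10 neutrophil markers, among them S100a8, Camp and Ly6g, summed to 1.15 to 7.68 CPM in the WT libraries of all ages and to 1.74 to 30.8 CPM in SgshKO at 3 weeks, but to 3025 and 14880 CPM in SgshKO at 4 months. At 8 months they summed to 2861, 822, 5856, 649, 753, 435 and 758 CPM in SgshKO replicates 1 to 7. 8 monocyte markers summed to 7.99 to 26.9 CPM in WT, 379 and 1475 CPM in SgshKO at 4 months and 73.2 to 505 CPM at 8 months. 8 markers of border macrophages summed to 55.1 to 76.0 CPM in WT and 83.0 to 109 CPM in SgshKO at 3 weeks, 9.46 and 10.5 against 71.2 and 124 CPM at 4 months, and 15.9 to 32.1 against 61.3 to 108 CPM at 8 months, where 5 of the 7 tested were called higher. The part of these cells in the results was not tested. A score for the response to isolation, the mean log2 CPM of 38 genes (Fos, Jun, Egr1, Atf3, Hspa1a and others, with no chemokine), lay at 5.99 to 6.32 in 3-week WT libraries and at 6.13 to 7.81 in those of SgshKO. It was 7.73 to 8.13 and 7.74 to 7.83 at 4 months, and 6.46 to 6.76 and 6.09 to 6.93 at 8 months. SgshKO replicates 1 (7.81) and 4 (7.03) stood above the other 3-week libraries, and the libraries of 4 months stood above all others except the first of these. Sgsh reads were still present in SgshKO (26.6 ± 4.75 CPM, SD, n = 7, against 44.4 ± 12.3 CPM, SD, n = 4, at 8 months). Sgsh was called lower at 8 months (-0.74 ± 0.16, log2, SE, edgeR adjusted p = 0.00058). It was not called at 3 weeks (-0.32, adjusted p = 0.434) or 4 months (-0.40, adjusted p = 0.334). The 8-month ranges overlapped, so the genotype label of each library could not be checked by Sgsh. The ASOs lowered their targets: Mitf fell by 4.81, Tfeb by 3.24 and Tfe3 by 2.38 on the log2 scale in WT, and Mitf fell by 2.26 and Tfe3 by 1.08 with the combination in SgshKO. Samples are bulk, so that a change in the number of cells of a type and a change in RNA per cell cannot be told apart.

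Across genes, levels are compared per transcript length, in the TPM values (transcript abundance scaled to length and library) that the authors deposited for the age series. In WT at 3 weeks Ccl3 (median 114 TPM) and Ccl9 (120 TPM) were the highest, with ranges that overlapped, and were followed by Ccl6 (94.7), Ccl4 (88.2), Ccl12 (60.3), Cxcl16 (30.1) and Ccl2 (23.5). Cxcl10 (2.78), Ccl5 (1.74) and Cxcl2 (0.161) were the lowest. In SgshKO at 8 months Ccl3 had a median of 1139 TPM (725 to 1326) and Ccl4 361 TPM (212 to 490), and neither range overlapped that of any other of the ligands. Ccl2 (107), Ccl6 (90.0), Cxcl16 (84.3) and Ccl12 (82.2) had overlapping ranges below these, then Ccl9 (54.8), and Cxcl10 (8.87), Ccl5 (7.96) and Cxcl2 (0.991) were again the lowest.

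**Figure D1:**
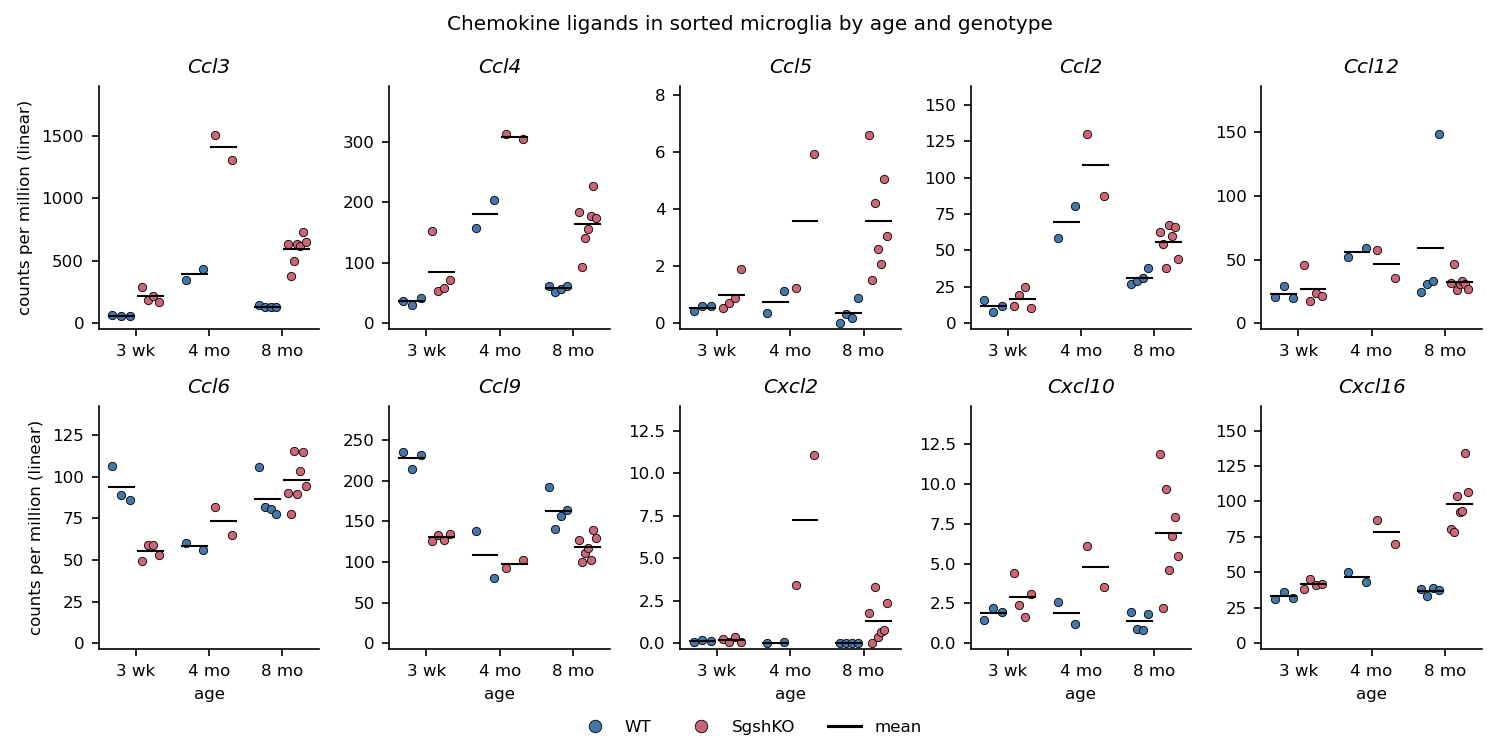
CPM (linear y axis, a separate scale for each gene) of the 10 ligands against age, with WT libraries in blue, SgshKO libraries in red, 1 point per library and a black line at the group mean. Ccl3 is higher in every SgshKO library than in every WT library of the same age, and the SgshKO libraries of 4 months reach 1511 and 1308 CPM.

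SgshKO was compared with WT at each age to ask how loss of Sgsh changes expression. Of the 10 ligands, 2 were called higher and 2 lower at 3 weeks, 3 higher and 0 lower at 4 months, and 7 higher and 2 lower at 8 months (edgeR quasi-likelihood test, adjusted p under 0.05). Over all 14309 genes tested, the share called in either direction was 9.03%, 19.5% and 40.5% at these ages, the share called higher 5.31%, 10.3% and 21.6%, and the share called lower 3.72%, 9.26% and 18.9%. Cxcl2, which passed the count filter through the SgshKO libraries of the later ages, is among those called higher at 4 and 8 months, and without it 2 and 6 of the other 9 were called higher. The median log2 fold change of the ligands was 0.55, 0.75 and 1.46, against -0.02, 0.02 and 0.02 over all genes. At 8 months the list of calls was long across the transcriptome as well, so the counts are set against 21.6% called higher and 18.9% called lower. The count at 4 months fell to 1 without WT replicate 2, and the labels give no batch that could be entered in a model.

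Ccl3, also known as macrophage inflammatory protein 1 alpha, was the ligand that differed at all 3 ages. At 3 weeks WT libraries had 66.6, 55.5 and 57.6 CPM and SgshKO libraries 293, 183, 217 and 168 CPM. The log2 fold change was 1.85 ± 0.18 (SE, edgeR adjusted p = 1.51e-07). At 4 months the values were 348 and 438 CPM in WT and 1511 and 1308 CPM in SgshKO, a difference of 1.84 ± 0.23 (adjusted p = 2.94e-06). At 8 months they were 144, 127, 131 and 132 CPM in WT and 382 to 735 CPM in SgshKO (median 637), a difference of 2.15 ± 0.16 (adjusted p = 5.29e-11). The groups did not overlap at any age.

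Ccl4, or macrophage inflammatory protein 1 beta, attracts macrophages and T cells and is the neighbour of Ccl3 in the cluster. At 3 weeks it had 37.5, 30.6 and 41.9 CPM in WT and 153, 53.8, 58.7 and 71.6 CPM in SgshKO. The groups did not overlap, and the difference was 1.21 ± 0.28 (log2, SE, edgeR adjusted p = 0.0047), but the SgshKO library at 153 CPM was replicate 1, the library with the highest isolation score of that age. With the isolation score as a covariate Ccl4 differed by 0.57 (adjusted p = 0.127), and without SgshKO replicates 1 and 4, a choice made after seeing the data, by 0.62 (adjusted p = 0.117), so the call at 3 weeks was lost both ways. Ccl3 differed by 1.60 (adjusted p = 1.42e-06) and 1.74 (adjusted p = 7.90e-07) in the same fits. At 4 months Ccl4 had 158 and 203 CPM in WT and 312 and 304 CPM in SgshKO, which did not pass the threshold (0.77 ± 0.34, adjusted p = 0.126). With the isolation covariate the same difference was 0.89 (adjusted p = 0.0078). At 8 months WT libraries had 51.8 to 61.6 CPM and SgshKO libraries 93.4 to 227 CPM (median 174). All SgshKO libraries were above all WT libraries, and Ccl4 was higher by 1.51 ± 0.23 (adjusted p = 9.43e-06), or by 1.55 with the covariate.

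Ccl5, or RANTES, a ligand that T cells and activated macrophages make, was near the limit of detection. It had 0.421, 0.602 and 0.614 CPM in WT and 0.522, 0.713, 0.871 and 1.90 CPM in SgshKO at 3 weeks. At 4 months it had 0.355 and 1.15 CPM in WT and 1.22 and 5.93 CPM in SgshKO, and at 8 months 0, 0.339, 0.189 and 0.884 CPM in WT against 1.52 to 6.59 CPM (median 3.07) in SgshKO. The groups overlapped at 3 weeks and not at 4 or 8 months. The difference passed at 8 months (3.41 ± 0.68, SE, edgeR adjusted p = 0.00027) but not at 3 weeks (0.84, adjusted p = 0.638) or 4 months (2.20, adjusted p = 0.115). The 4-month difference was called without SgshKO replicate 1 (2.87, adjusted p = 0.0498). Markers of T and NK cells, 8 of 10 listed, summed to 0 to 0.708 CPM in WT and 0.554 to 4.23 CPM in SgshKO at 8 months, with 5 and 2 of the 8 at 0 in all libraries of the group. Of the 2 tested, 1 was called higher, where 21.6% of all genes were. The part of T and NK cells in the Ccl5 values was not tested. The highest Ccl5 libraries, 6.59 CPM at 8 months (replicate 1) and 5.93 CPM at 4 months (replicate 2), were among those with the highest neutrophil marker sums. Without SgshKO replicates 1 and 3 at 8 months, the 2 libraries with the highest neutrophil sums of that age (a choice made after seeing the data), the difference was 3.06 (adjusted p = 0.0022), though the 5 libraries left still had neutrophil sums of 435 to 822 CPM.

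The Ccr2 ligands did not share a pattern. Ccl2, or monocyte chemoattractant protein 1, had 15.8, 7.76 and 12.1 CPM in WT and 11.9, 19.6, 25.1 and 10.7 CPM in SgshKO at 3 weeks, with overlapping groups (0.50 ± 0.27, SE, edgeR adjusted p = 0.339). Without SgshKO replicates 1 and 4 it was called (0.91, adjusted p = 0.0394). At 4 months the values were 58.6 and 80.6 CPM against 130 and 87.5 CPM (0.63 ± 0.32, adjusted p = 0.184). At 8 months WT libraries had 26.8, 29.0, 31.1 and 38.1 CPM and SgshKO libraries 38.0 to 67.4 CPM (median 59.9), and Ccl2 was higher by 0.85 ± 0.21 (adjusted p = 0.0021), with the lowest SgshKO library just under the highest WT library. Ccl12, or monocyte chemoattractant protein 5, had 20.8, 29.1 and 20.05 CPM in WT and 45.5, 17.5, 23.5 and 21.8 CPM in SgshKO at 3 weeks, and 52.4 and 59.0 against 57.5 and 35.2 CPM at 4 months. At 8 months it had 24.6, 31.1, 33.2 and 149 CPM in WT and 26.5 to 46.5 CPM (median 30.8) in SgshKO. Its call as lower at 8 months (-0.86 ± 0.34, adjusted p = 0.0452) rested on the WT library at 149 CPM. Without that library, WT replicate 4, the difference was 0.09 (adjusted p = 0.789). The call was also lost without SgshKO replicates 1, 3, 4, 5, 6 or 7, each left out alone (-0.88 to -0.83, adjusted p 0.0569 to 0.0696).

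Ccl6 and Ccl9, ligands of Ccr1 that myeloid cells make without stimulation, were lower in SgshKO at 3 weeks. Ccl6 had 106, 89.1 and 86.2 CPM in WT and 49.5, 59.2, 58.9 and 52.8 CPM in SgshKO, a difference of -0.77 ± 0.13 (log2, SE, edgeR adjusted p = 0.00022). Ccl9 had 236, 215 and 232 CPM in WT and 126, 133, 127 and 135 CPM in SgshKO, a difference of -0.81 ± 0.13 (adjusted p = 0.00017). Neither pair of groups overlapped. At 4 months the values of Ccl6 were 60.3 and 56.2 CPM in WT and 82.0 and 65.3 CPM in SgshKO (0.34, adjusted p = 0.197), and those of Ccl9 138 and 80.2 against 92.3 and 102 CPM (-0.16, adjusted p = 0.610). At 8 months Ccl6 had 106, 81.8, 80.7 and 77.3 CPM in WT and 77.8 to 115 CPM (median 94.4) in SgshKO, with overlapping groups and no call (0.18 ± 0.11, adjusted p = 0.186). Without WT replicate 1 Ccl6 was called higher (0.29, adjusted p = 0.0392). Ccl9 had 193, 141, 156 and 164 CPM in WT and 100 to 139 CPM (median 117) in SgshKO, all below WT, and was lower by -0.47 ± 0.11 (adjusted p = 0.0013).

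Cxcl2, or macrophage inflammatory protein 2, was seen almost only in SgshKO libraries of the later ages. At 3 weeks all libraries had at most 0.387 CPM. At 4 months the WT libraries held 1 count together against 157 counts in SgshKO (3.42 and 11.1 CPM), that is 177.5 times as much (95% interval from counting, 31.4 to 7056). Its edgeR call at this age was lost when either WT library was left out. At 8 months the WT libraries held 0 counts and the SgshKO libraries 195, which is at least 33.1-fold higher when WT as a group is set to 3 counts (0.0444 CPM). Intervals and floor cover counting error only, and because Cxcl2 passed the count filter only through the group where it is high, these values are a description. SgshKO replicates 1 to 7 had 1.80, 0, 3.29, 0.344, 0.676, 0.754 and 2.35 CPM. The library with the most Cxcl2 (11.1 CPM) had the highest neutrophil marker sum of the series (14880 CPM), and at 8 months the most was in replicate 3, again the highest sum (5856 CPM), while replicate 7 had 2.35 CPM at a sum of 758 CPM. Neutrophils make Cxcl2 themselves. What part these cells have in the value was not tested.

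Cxcl10, the ligand of Cxcr3 induced by interferon, had 1.47, 2.23 and 1.95 CPM in WT and 4.42, 2.42, 1.65 and 3.07 CPM in SgshKO at 3 weeks, with overlapping groups (0.63, adjusted p = 0.551). At 4 months it had 2.60 and 1.22 CPM against 6.11 and 3.52 CPM (adjusted p = 0.149). At 8 months WT libraries had 1.94, 0.921, 0.802 and 1.86 CPM and SgshKO libraries 2.22 to 11.9 CPM (median 6.76), a difference of 2.37 ± 0.42 (log2, SE, edgeR adjusted p = 6.71e-05) with no overlap. The highest SgshKO values, 11.9 and 9.71 CPM, were in replicates 1 and 3, the libraries with the highest neutrophil sums, and without both the difference was 1.99 (adjusted p = 0.00062).

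The genotype difference of Cxcl16 was larger at 8 months than at 3 weeks. Cxcl16 had 31.1, 35.9 and 31.9 CPM in WT and 38.1, 45.6, 40.7 and 41.8 CPM in SgshKO at 3 weeks, groups that did not overlap but did not pass (0.33 ± 0.14, SE, edgeR adjusted p = 0.177). At 4 months it had 50.5 and 43.3 CPM in WT and 86.5 and 69.7 CPM in SgshKO (0.74 ± 0.19, adjusted p = 0.0059), a call lost without WT replicate 2 (0.65, adjusted p = 0.0868) or SgshKO replicate 1 (0.54, adjusted p = 0.0999). At 8 months WT libraries had 33.1 to 38.7 CPM and SgshKO libraries 78.5 to 134 CPM (median 93.0). Every SgshKO library was above every WT library, and the difference was 1.42 ± 0.12 (adjusted p = 8.93e-10).

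**Figure D2:**
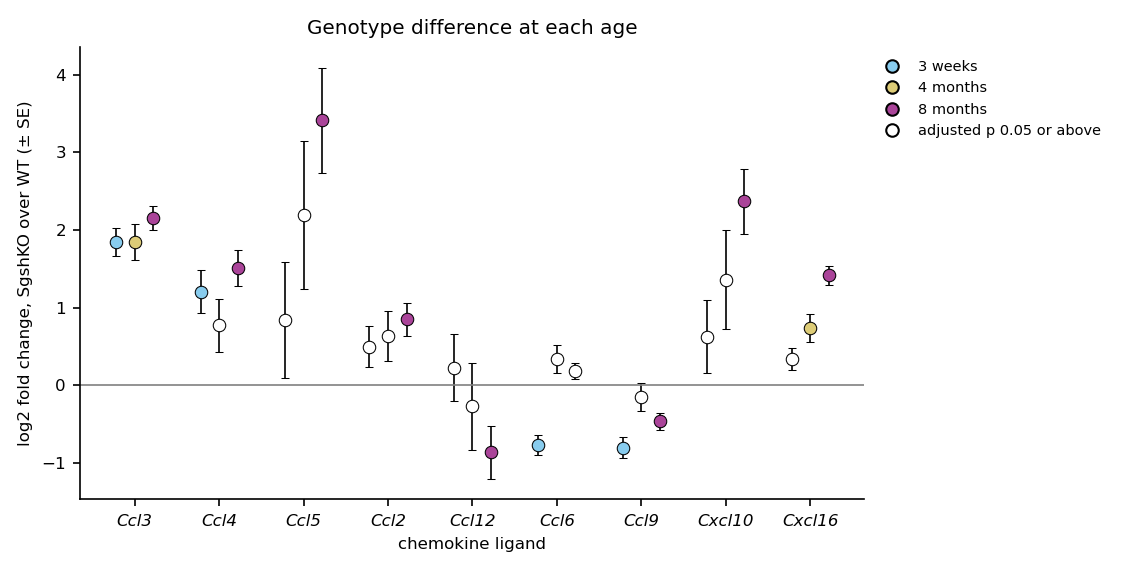
Log2 fold change of SgshKO over WT (y axis, with SE bars) for 9 ligands (x axis) at 3 weeks, 4 months and 8 months; filled points passed an adjusted p of 0.05 and white points did not. Cxcl2 is not drawn because its WT libraries held 1 and 0 counts at the later ages. Ccl3 lies between 1.84 and 2.15 at all ages, Cxcl16 goes from 0.33 to 1.42, and Ccl6 and Ccl9 lie below 0 at 3 weeks.

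Groups did not overlap for 3 higher and 2 lower ligands at 3 weeks, 8 higher and 0 lower at 4 months, and 5 higher and 1 lower at 8 months, against 10.9% and 11.6%, 29.8% and 28.3%, and 14.0% and 11.2% of all genes. Cxcl2 is among the 8 at 4 months. It passed the count filter through the SgshKO libraries of the later ages, so its place in that count is a description. Whether the genotype difference itself changed with age was tested as an interaction. From 3 weeks to 8 months 3 of the 10 ligands passed, Cxcl2 among them, where 9.25% of all genes did. Ccl6, lower than WT at 3 weeks and not called at 8 months, shifted (0.95 ± 0.17, SE, edgeR adjusted p = 0.00057), and the Cxcl16 difference grew (1.08 ± 0.18, adjusted p = 0.00029). For Cxcl2 WT held 0 counts at 8 months and the filter was passed through SgshKO, so its call is no evidence of a change. It was lost when any of 8 libraries was left out, which were WT 3-week replicates 1, 2 and 3, SgshKO 3-week replicates 2 and 4, and WT 8-month replicates 1, 2 and 3 (adjusted p 0.0520 to 0.103). Ccl5 (3.36, adjusted p = 0.0339) passed without WT 8-month replicate 4, and Cxcl10 (1.89, adjusted p = 0.0259) without SgshKO 8-month replicate 2. From 3 weeks to 4 months 1 ligand passed, Ccl6 (1.11 ± 0.22, adjusted p = 0.0072), where 2.52% of all genes did, and it was lost without WT 4-month replicate 2 (1.07, adjusted p = 0.0591), the fit in which the count was 0. The count was 2 without WT 4-month replicate 1, where Ccl9 also passed (1.10, adjusted p = 0.0108). From 4 to 8 months 0 of 10 passed with edgeR and 0 with DESeq2, and 1 ligand had an unadjusted p under 0.05, where 0.391% of all genes passed with edgeR. For Ccl3 the genotype difference changed by 0.31 ± 0.22 from 3 weeks to 8 months (adjusted p = 0.467).

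Between 3 weeks and 4 months Ccl2, Ccl3, Ccl4, Ccl6 and Ccl9 were called in both genotypes, Ccl6 in opposite directions. The isolation genes moved as well, with fewer calls in SgshKO than in WT, and age and handling cannot be told apart. In WT from 3 weeks to 4 months, Ccl3 (2.72 ± 0.21, SE, edgeR adjusted p = 1.83e-08), Ccl2 (2.56 ± 0.30, adjusted p = 1.45e-05) and Ccl4 (2.30 ± 0.32, adjusted p = 7.77e-05) rose, and Ccl9 (-1.07 ± 0.17, adjusted p = 0.00033) and Ccl6 (-0.69 ± 0.16, adjusted p = 0.012) fell. These are 5 of 10, where 5.21% of all genes passed. Of the 38 isolation genes, 22 were called higher and 1 lower in the same comparison, with a median log2 fold change of 1.56; Hspa1b rose by 5.14, Hspa1a by 5.01, Atf3 by 3.75, Tnf by 3.44 and Fos by 2.31, and Il1a did not pass (0.36, adjusted p = 0.757). With the isolation score as a covariate 2 of the 5 calls were left, Ccl3 (2.12, adjusted p = 0.00063) and Ccl2 (3.31, adjusted p = 0.00081), and Ccl4 was at 0.95 (adjusted p = 0.329). Ccl6 was also lost without WT 3-week replicate 1, WT 4-month replicate 1 or WT 4-month replicate 2 (adjusted p = 0.0538, 0.0775 and 0.180). In SgshKO over the same interval Ccl3 (2.71), Ccl2 (2.70), Ccl4 (1.86), Cxcl16 (0.91), Ccl6 (0.42) and Cxcl2 (adjusted p = 0.00098) rose and Ccl9 (-0.42) fell, 7 of 10 against 32.7% of all genes. Cxcl2, counted here, passed the count filter through the SgshKO libraries of the later ages, so its call is a description. Of the 38 isolation genes 9 were called higher and 2 lower, a share below the 32.7% of all genes. With the isolation covariate 4 of the 7 calls were left, Ccl3 (2.41), Ccl2 (3.13), Ccl4 (1.28) and Cxcl16 (0.82), while Ccl6 (adjusted p = 0.0623), Ccl9 (0.111) and Cxcl2 (0.0556) did not pass. The Ccl9 call was lost without any 1 of the 6 SgshKO libraries (adjusted p 0.0521 to 0.182), and that of Ccl6 without 3-week replicates 1 or 4 or either 4-month library (0.0573 to 0.434). Ccl5, not called with all libraries (1.87, adjusted p = 0.0586), passed without 3-week replicate 4 or 4-month replicate 1.

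From 4 to 8 months the 5 ligands moved back in WT, while in SgshKO Ccl6 rose again and Ccl9 did not pass (0.28, adjusted p = 0.188). In WT, Ccl3 (-1.56 ± 0.19, SE, edgeR adjusted p = 2.23e-05), Ccl4 (-1.65 ± 0.29, adjusted p = 0.0012) and Ccl2 (-1.16 ± 0.27, adjusted p = 0.0117) fell, and Ccl9 (0.59, adjusted p = 0.0277) and Ccl6 (0.57, adjusted p = 0.0284) rose, 5 of 10 against 5.77% of all genes. The count was 2 without WT 4-month replicate 2, where Ccl2 was at -0.90 (adjusted p = 0.225), Ccl9 at 0.25 (adjusted p = 0.547) and Ccl6 at 0.53 (adjusted p = 0.231), and 3 without WT 8-month replicate 1, where Ccl9 (adjusted p = 0.0643) and Ccl6 (adjusted p = 0.0685) were lost. Ccl6 was also lost without WT 4-month replicate 1 (adjusted p = 0.151). In SgshKO, Ccl3 (-1.24), Ccl2 (-0.95), Ccl4 (-0.91) and Cxcl2 (-2.45, adjusted p = 0.0431, a description because the filter was passed through SgshKO) fell and Ccl6 (0.42) rose, 5 of 10 against 19.8%. That count was 3 without SgshKO 4-month replicate 1, 2 without 4-month replicate 2, and 3 without 8-month replicates 5 or 6. Ccl2 was lost without 4-month replicate 1, Ccl4 without either 4-month library, Ccl6 without 4-month replicate 2 or 8-month replicates 3, 5 or 6, and Cxcl2 without 4-month replicate 2 or 8-month replicates 1, 4, 5 or 6. With the isolation covariate the WT count was 2 and the SgshKO count 1, and Ccl4 in SgshKO was at 0.04 (adjusted p = 0.953).

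The isolation scores of 3 weeks and 8 months lay closer than those of 4 months but still differed: of the isolation genes, WT had 5 higher and 1 lower at 8 months, and SgshKO 1 higher and 16 lower (medians 0.25 and -0.61). Between these ages Ccl3 (1.16 ± 0.18, SE, edgeR adjusted p = 0.00014) and Ccl2 (1.40 ± 0.27, adjusted p = 0.0013) rose and Ccl9 (-0.48, adjusted p = 0.0272) fell in WT, 3 of 10 against 7.65% of all genes. The Ccl9 call was lost without WT 3-week replicates 1, 2 or 3 or WT 8-month replicates 2 or 3 (adjusted p 0.0505 to 0.0995). Ccl12 was not called (1.33, adjusted p = 0.0647) but passed without WT 8-month replicates 1, 2 or 3. In SgshKO 8 of 10 rose against 30.6% of all genes called (15.5% higher, 15.1% lower): Ccl3 (1.46), Ccl2 (1.75), Ccl4 (0.96), Ccl5 (1.86), Cxcl16 (1.24), Cxcl10 (1.26), Ccl6 (0.83) and Cxcl2 (adjusted p = 0.0258, a description because the filter was passed through SgshKO). The count was 5 without SgshKO 3-week replicate 2, and 5 without SgshKO 8-month replicates 1 and 3, where Ccl5 (adjusted p = 0.0989), Cxcl10 (0.104) and Cxcl2 (0.128) were lost. Single libraries decided these calls: Ccl5 was lost without 3-week replicates 1, 2 or 3 or 8-month replicate 1, Cxcl10 without 3-week replicates 2 or 3, and Cxcl2 without 3-week replicates 1, 2 or 4 or 8-month replicate 3.

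**Figure D3:**
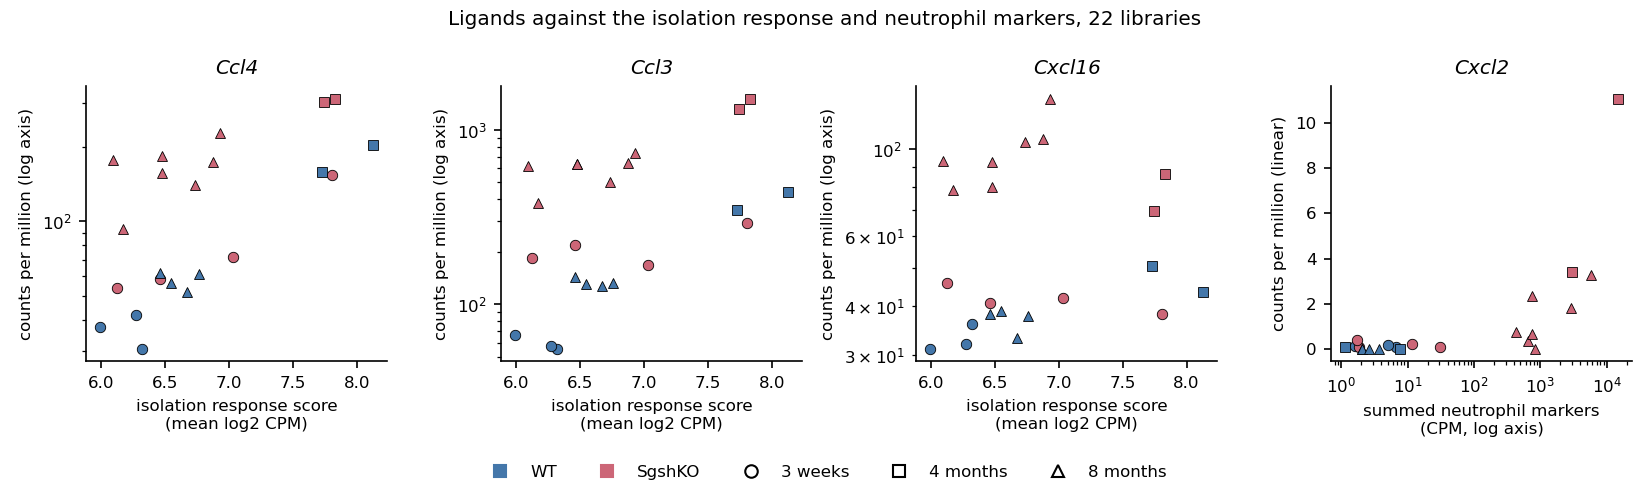
Each point is 1 of the 22 age libraries (blue WT, red SgshKO; circles 3 weeks, squares 4 months, triangles 8 months). The first 3 panels plot Ccl4, Ccl3 and Cxcl16 (CPM, log axis) against the isolation score (mean log2 CPM of 38 genes), and the last plots Cxcl2 (CPM, linear axis) against summed neutrophil markers (CPM, log axis). SgshKO replicate 1 of 3 weeks, at a score of 7.81 and 153 CPM of Ccl4, lies beside the WT libraries of 4 months, and the library with 11.1 CPM of Cxcl2 lies farthest right.

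After the group means were removed, Ccl3 and Ccl4 varied together over the 22 libraries (Pearson r of 0.848, given as a description because libraries share depth and handling). The genes most like Ccl4 on that measure, of all genes tested outside the 10, were Egr2 (0.901), Egr3 (0.866) and Atf3 (0.863), immediate early or stress-response factors. For Ccl3 they were Egr3 (0.867), Tulp3 (0.819) and Fbxw11 (0.774). For Cxcl16 they were Tspan33 (0.793), Itgax (0.785) and Zmynd15 (0.779), of which Zmynd15 overlaps Cxcl16. Zmynd15 had a mean of 18.9 CPM in WT and 42.2 CPM in SgshKO at 8 months. In the WT ASO libraries its mean was 2.09 CPM with ntc and 2.91 CPM with the Mitf ASO, with overlapping ranges. What part reads of the overlap have in the Cxcl16 values was not tested. Against the isolation score itself, the same measure was 0.755 for Ccl4, 0.509 for Ccl3 and 0.157 for Cxcl16. The order differed within the 7 SgshKO libraries of 8 months. There r with the score was 0.835 for Ccl9, 0.782 for Cxcl16, 0.522 for Ccl4 and 0.495 for Ccl3, and negative for Ccl2 (-0.293) and Ccl12 (-0.717). No ligand passed in that group (permutation test, lowest adjusted p = 0.188). For Ccl12 the most like was Sertad2 (0.927), a value to which WT 8-month replicate 4 contributes.

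Of 18 of 23 chemokine receptors that passed the count filter, 2 were called higher and 4 lower at 3 weeks, 2 and 3 at 4 months, and 5 and 4 at 8 months. Over all genes 5.31% were called higher and 3.72% lower, then 10.3% and 9.26%, then 21.6% and 18.9%, so the receptors' shares at 8 months lay near the background. Ccr1, the receptor of Ccl6 and Ccl9, was lower by -2.30 ± 0.37 (log2, SE, edgeR adjusted p = 0.00013) at 3 weeks, where WT had 71.3 ± 13.7 CPM (SD, n = 3) and SgshKO 14.5 ± 3.73 CPM (SD, n = 4), and by -1.64 ± 0.31 (adjusted p = 0.00013) at 8 months. Ccr2 had 8.73 ± 2.60 CPM (SD, n = 4) in WT and 10.1 ± 3.91 CPM (SD, n = 7) in SgshKO at 8 months. Cxcr2, the receptor of Cxcl2 and a transcript of neutrophils, was called higher at 4 months (adjusted p = 0.0032, with 0 CPM in both WT libraries) and 8 months (6.33 ± 0.98, adjusted p = 1.4e-05), the groups with high neutrophil marker sums. Because its WT libraries of 4 months could not pass the count filter, these Cxcr2 calls are a description. Cxcr3 (0.965 CPM) and Cxcr6 (0.442 CPM) were near the limit of detection in SgshKO at 8 months.

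Of 11 of 27 other chemokine ligands that passed the filter, 0 were called higher and 1 lower at 3 weeks, 1 and 0 at 4 months, and 3 and 2 at 8 months, the last again near the 21.6% and 18.9% of all genes. Cxcl14, a ligand with few known receptors, rose from 0.0826 to 4.98 CPM at 8 months (5.57 ± 0.78, SE, edgeR adjusted p = 3.0e-06) and was called at 4 months too (6.15, adjusted p = 0.0018). Cxcl13, a B-cell attractant (adjusted p = 0.0026, with 0 CPM in all WT libraries), and Pf4, a platelet and macrophage chemokine (3.48, adjusted p = 0.028), were the others called higher at 8 months, both under 1 CPM on average. WT libraries at or near 0 CPM could not pass the count filter, so the calls of Cxcl13, Cxcl14 and Pf4, counted above, are a description. Ccl24 was lower at 3 weeks (-2.21, adjusted p = 0.026) and 8 months (-1.37, adjusted p = 0.031), and Ccl7, a Ccr2 ligand beside Ccl2, was lower at 8 months (-1.18, adjusted p = 0.045) while Ccl2 was higher. Ccl22, Ccl25, Ccl27a, Cx3cl1, Cxcl9 and Cxcl12 passed at no age.

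At the 3 ages 5.31%, 10.3% and 21.6% of all genes were called higher and 3.72%, 9.26% and 18.9% lower. Among 23 genes of the NF-kB pathway, which drives several of the ligands, 3 were called higher and 0 lower at 3 weeks, 4 and 0 at 4 months, and 10 and 1 at 8 months, with medians of 0.10, 0.08 and 0.54. The lowest p values at 8 months were those of Tnfaip2 (2.06 ± 0.18), Cd83 (1.77 ± 0.17), Relb (1.58 ± 0.19) and Nfkb2 (0.93 ± 0.13), of which Relb and Nfkb2 are subunits of the non-canonical branch. Tnfaip2 (1.12, edgeR adjusted p = 0.00061) and Cd83 (0.91, adjusted p = 0.0021) were already called at 3 weeks. Among 22 interferon-response genes, 1, 6 and 18 were called higher and 0 lower at the 3 ages, with medians of 0.30, 0.67 and 1.55. Ifi27l2a (3.47 ± 0.30), Ifi204 (2.67 ± 0.29) and Oasl2 (2.63 ± 0.30) were among those with the lowest p at 8 months, the age at which Cxcl10 was called. The list of 38 isolation genes shares Tnf, Cd83, Nfkbia and other genes with that of NF-kB. Of these 38, 10 were called higher and 0 lower at 3 weeks, 2 and 2 at 4 months, and 6 and 9 at 8 months. The isolation shares lay below those of all genes at 4 months and near them at 8 months. At 8 months Fos (-0.87, adjusted p = 0.0458), Egr1 (-1.19, adjusted p = 0.0076) and Hspa1b (-2.39, adjusted p = 0.0020) were among the 9 isolation genes called lower in SgshKO. Tnf (1.88, adjusted p = 6.8e-06) was among the 6 called higher. Of 6 genes that process ligands or their transcripts, Adam10, a protease that sheds Cxcl16, was lower at 8 months (-0.40 ± 0.08, adjusted p = 0.00042).

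In WT mice the control ASO was first compared with PBS. 0 of the 7 listed ligands and 0 of 10277 genes passed with edgeR (0.0%), while DESeq2 called 2 genes and none of the ligands. At an unadjusted p under 0.05 there were 415 genes and 1 ligand, Ccl2 (-0.80 ± 0.22), which had 6.89, 4.84, 2.56 and 4.23 CPM with PBS and 4.85, 2.99, 1.61 and 1.64 CPM with ntc. The titles number the libraries 1 to 4 as grp, once in each treatment, and levels differed between grp. With ntc Ccl3 had 49.0 CPM in grp 1 and 16.3 to 18.1 CPM in the others, while Cxcl16 was lowest in grp 1 (59.6 CPM). The authors deposited a batch-corrected signal for these libraries, so the treatments were compared within grp.

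With the Mitf ASO 3 of the 7 ligands rose and 1 fell, where 11.0% of all genes passed (5.77% higher and 5.21% lower). Cxcl16 had 59.6, 63.7, 72.9 and 66.0 CPM with ntc (grp 1 to 4) and 78.5, 90.0, 100 and 86.0 CPM with the Mitf ASO. The groups did not overlap, as was true of 4.07% of all genes in this direction, and the difference was 0.44 ± 0.07 (log2, SE, edgeR adjusted p = 0.00054). Ccl3 had 49.0, 18.1, 16.3 and 17.4 CPM with ntc and 81.8, 28.9, 19.9 and 32.1 CPM with the Mitf ASO, higher in 4 of 4 grp (0.65 ± 0.14, adjusted p = 0.0047), though the groups overlap without regard to grp. Ccl4 had 18.3, 15.3, 10.8 and 12.2 against 28.9, 20.4, 14.7 and 18.7 CPM, also higher in 4 of 4 (0.53 ± 0.15, adjusted p = 0.0264). Ccl9 had 235, 160, 161 and 186 against 191, 138, 140 and 135 CPM, lower in 4 of 4 (-0.30 ± 0.08, adjusted p = 0.0277). The calls of Ccl4 and Ccl9 rested on single libraries: the count was 2 without ntc replicates 1 or 4 or Mitf replicates 1, 3 or 4. Ccl4 was also lost without ntc replicate 2 (adjusted p 0.0535 to 0.110 over these 6 fits) and Ccl9 without Mitf replicate 2 (0.0684 to 0.116).

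The Tfe3 ASO raised Ccl3 and Ccl9, 2 of 7 against 2.16% of all genes. Ccl3 had 86.5, 30.2, 16.7 and 30.4 CPM (0.62 ± 0.14, SE, edgeR adjusted p = 0.0224). Ccl9 had 339, 222, 243 and 229 CPM, above ntc in 4 of 4 grp (0.47 ± 0.08, adjusted p = 0.0062). The Ccl3 call, and with it the count of 2, was lost without ntc replicates 1, 2 or 4 or Tfe3 replicates 1, 2 or 4 (adjusted p 0.0575 to 0.0958). With the Tfeb ASO 0 of 7 passed with edgeR against 0.778% of all genes, 3 ligands had an unadjusted p under 0.05, and DESeq2 called 1. Ccl4 had 17.7, 10.3, 4.88 and 6.69 CPM with the Tfeb ASO, below ntc in 4 of 4 grp (-0.59 ± 0.16, adjusted p = 0.088), and Ccl3 47.2, 13.2, 7.07 and 15.6 CPM, also below in 4 of 4 (-0.40 ± 0.14, adjusted p = 0.206). Ccl4 passed without Tfeb replicate 1 (-0.81, adjusted p = 0.0227). Cxcl16 did not pass with the Tfeb or the Tfe3 ASO but was above ntc in 4 of 4 grp with each. With the Tfeb ASO the difference in grp 3 was only 0.0023. Its libraries had 73.1 to 76.9 CPM with the Tfeb ASO and 68.8 to 78.3 CPM with the Tfe3 ASO, against 59.6 to 72.9 CPM with ntc.

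The ASOs share their control, so they were also compared with each other. Between Mitf and Tfeb ASO, Ccl3 (1.05 ± 0.14, SE, edgeR adjusted p = 0.00032) and Ccl4 (1.12 ± 0.15, adjusted p = 0.00050) were higher with the Mitf ASO, 2 of 7 against 3.53% of all genes. Between Tfeb and Tfe3 ASO, Ccl3 (-1.02 ± 0.14, adjusted p = 0.00095), Ccl4 (-0.81 ± 0.16, adjusted p = 0.0116) and Ccl9 (-0.55 ± 0.08, adjusted p = 0.0018) were lower with the Tfeb ASO, 3 of 7 against 1.62%. Ccl4 was lost there without Tfeb replicates 2, 3 or 4 or Tfe3 replicates 1 or 3 (adjusted p 0.0511 to 0.0565). Without Tfeb replicate 1, Ccl6 was called here (-0.33, adjusted p = 0.0325), and Cxcl16 was called between Mitf and Tfeb ASO (0.32, adjusted p = 0.0148). Between Mitf and Tfe3 ASO, Ccl9 was lower with the Mitf ASO (-0.77 ± 0.08, adjusted p = 1.32e-05) with no overlap, and Ccl6 (-0.30 ± 0.07, adjusted p = 0.0225) and Cxcl16 (0.27 ± 0.07, adjusted p = 0.0373) also passed, 3 of 7 against 3.76%. Ccl6 and Cxcl16 were each lost in 6 or more of the fits without 1 library, and the count was 1 without Mitf replicates 1, 2 or 3 or Tfe3 replicates 1, 3 or 4. The Ccl3 difference between Mitf and Tfe3 ASO was 0.04 ± 0.13 (adjusted p = 0.938). Ccl2 and Ccl12 passed in none of these comparisons.

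Of 8 listed receptors 1 rose and 3 fell with the Mitf ASO, where 5.77% of all genes were called higher and 5.21% lower. Ccr1 (-1.03 ± 0.22, SE, edgeR adjusted p = 0.0056) was among those that fell. Of the 38 isolation genes 34 were listed, and 2 were called higher and 2 lower, near the shares of all genes. Ccl24, the 1 other chemokine ligand listed, fell (-0.58, adjusted p = 0.043).

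**Figure D4:**
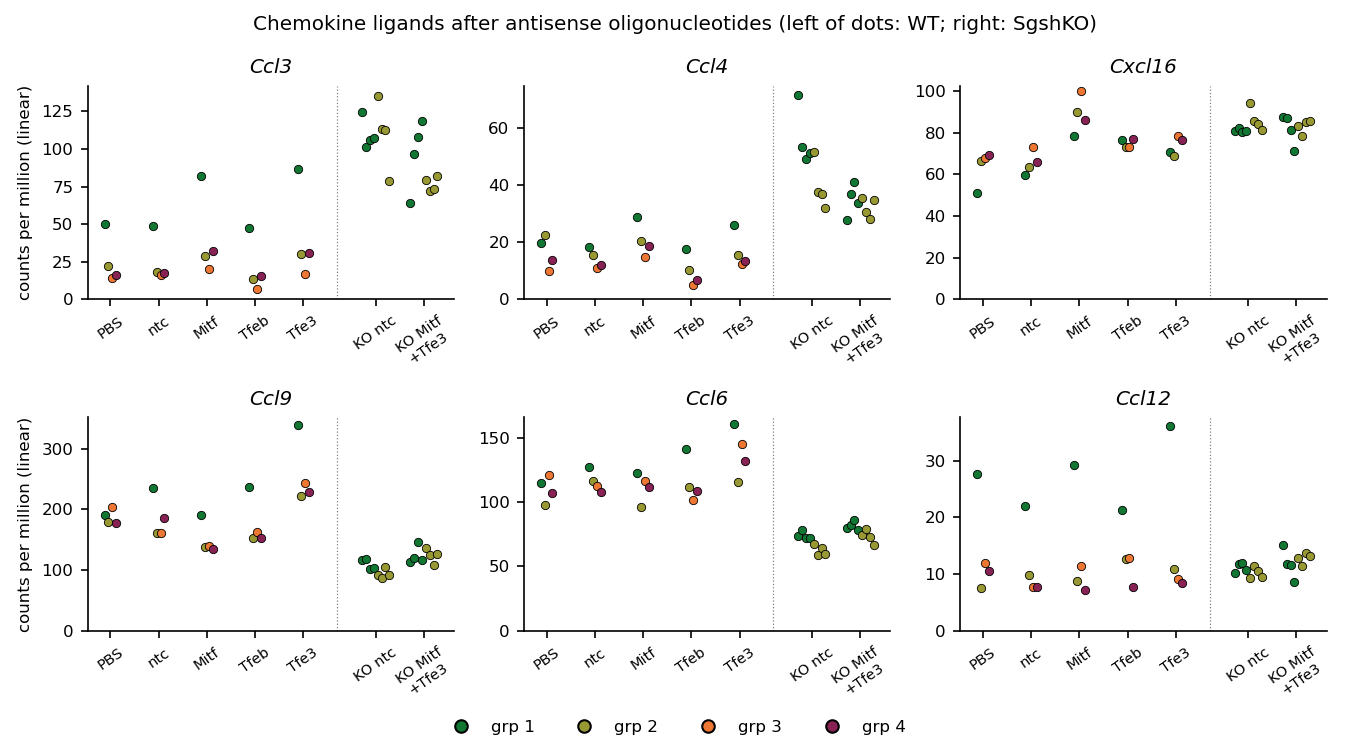
CPM (linear y axes from 0) of Ccl3, Ccl4, Cxcl16, Ccl9, Ccl6 and Ccl12, 1 point per library, by treatment, with WT left and SgshKO right of the dotted line and colours for the number called grp in the titles; levels on the 2 sides come from separately normalised tables. In WT, grp 1 is highest for Ccl3 in all 5 treatments, and Cxcl16 is higher in all 4 Mitf ASO libraries than in all 4 ntc libraries.

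In SgshKO mice the combined ASOs moved 4 of the 8 listed ligands, 3 up and 1 down, where 9.33% of all genes passed (4.84% higher and 4.5% lower). The ligand median was 0.08, against 0.00 over all genes. Ccl4 had 31.9 to 71.3 CPM (median 50.1, n = 8) with ntc and 27.6 to 41.2 CPM (median 34.2, n = 8) with the combination, and fell by 0.48 ± 0.11 (log2, SE, edgeR adjusted p = 0.0139). The difference was -0.69 in grp 1 and -0.27 in grp 2. Ccl9 had 86.9 to 118 CPM (median 103) and 109 to 146 CPM (median 122) and rose by 0.29 ± 0.07 (adjusted p = 0.0114). Ccl6 had 58.8 to 78.1 CPM (median 69.6) and 67.0 to 86.4 CPM (median 78.9) and rose by 0.19 ± 0.04 (adjusted p = 0.0142). Both were higher with the combination within each grp. Cxcl10 had 2.40 to 8.93 CPM (median 3.86) with ntc and 5.20 to 8.90 CPM (median 8.15) with the combination, higher by 0.77 ± 0.20 (adjusted p = 0.0261). The Cxcl10 groups overlapped, with ntc libraries at 8.93 and 5.40 CPM above the lowest combination library, the call was lost without ntc grp 1 replicate 2 (adjusted p = 0.0517) or combination grp 2 replicate 3 (0.0513), and the difference was 1.16 in grp 1 and 0.48 in grp 2.

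Ccl3 had 78.6 to 135 CPM (median 110) with ntc and 64.0 to 118 CPM (median 80.5) with the combination. It did not pass with all libraries (-0.35 ± 0.12, SE, edgeR adjusted p = 0.065), and passed without ntc grp 2 replicate 4 (-0.40, adjusted p = 0.032) or combination grp 1 replicate 4 (-0.42, adjusted p = 0.0343). Cxcl16, which rose with the Mitf ASO in WT, had 80.5 to 94.4 CPM (median 81.6) and 71.2 to 87.5 CPM (median 84.2), a difference of -0.02 ± 0.05 (adjusted p = 0.820). The WT and SgshKO experiments differ in ASOs and tables, and the difference between them was not tested. Ccl2 (-0.07 ± 0.10) and Ccl12 (0.21 ± 0.10, adjusted p = 0.197) did not pass.

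Other lists moved in the same libraries, where 4.84% of all genes were called higher and 4.5% lower. Of 35 listed isolation genes 0 were called higher and 8 lower with the combination, and with the isolation score as a covariate 2 of the 4 ligand calls were left: Ccl6 (0.23, edgeR adjusted p = 0.0141) and Ccl9 (0.33, adjusted p = 0.0192) passed, and Ccl4 (-0.36, adjusted p = 0.0967) and Cxcl10 (0.68, adjusted p = 0.116) did not. Of 21 NF-kB genes 0 rose and 4 fell, namely Cd83 (-0.34), Nfkbia (-0.25), Tnfaip2 (-0.35) and Tnf (-0.72). Of 19 interferon genes 13 rose and 0 fell, with a median of 0.40, led by Ifi204 (0.79 ± 0.10), Irf7 (0.94 ± 0.13), Ifi27l2a (0.98 ± 0.14) and Oasl2 (0.94 ± 0.14), and Cxcl10 rose with them. The 1 border macrophage marker listed was also called higher (0.22). Of 6 receptors 3 fell, among them Ccr2 (-0.71 ± 0.15, adjusted p = 0.0079). 6 listed neutrophil markers summed to 1.03 to 564 CPM with ntc and 0.996 to 358 CPM with the combination, with the high sums in grp 2 of both. With these markers as a covariate, added after seeing the data, the 4 calls were kept and Ccl3 passed too (-0.39, adjusted p = 0.0251).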

How the data were processed

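The authors deposited raw counts per gene for 3 sets of sorted microglia libraries, TPM for the age series and a batch-corrected signal for the ASO sets; per the labels' protocols the libraries were polyA, strand-specific and single-end. Per the submitters' processing notes, STAR 2.5.3a, kallisto 0.44.0, HOMER 4.11, DESeq2 1.36.0, R 4.2.3 and mm10 were used; which tool made which table, and whether counting used strand, is not given in the sources used here. Columns were matched to samples by title, and 1 PBS column headed grp 3 was treated as grp 4, as its sample's title gives it.

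The quasi-likelihood F test of edgeR 4.0.16 in R 4.3.3 was run on the counts after TMM scaling and filterByExpr (count minimum 10), 1 model per table: 6 groups for age, and treatment plus the grp number in each ASO table. P values were adjusted by Benjamini-Hochberg over all genes of a table and called under 0.05. SE is the log2 fold change divided by the square root of F, so it restates the test. Tables were not tested against each other. The tests were checked on simulated data. Alternatives were DESeq2 1.42.0, limma 3.58.1 on log2 TPM (pseudocount 1 or 0.1) or log2 signal (1 or 10), other size factors, no filter, an isolation covariate, the replicate block and each library left out. Leaving out pairs of libraries or grp 1 and the neutrophil covariate were added after seeing the data. Replicate numbers did not pair the age libraries (correlation of deviations -0.171 to 0.115). In WT ASO libraries, whose titles give the grp number, it was -0.0333 to 0.64 and over 0.1 in 38 of 40 pairs; what grp stands for is not given. The ligands and lists were chosen with earlier results of these data known. The text names all 10 ligands, fixed isolation genes and receptors, other ligands that passed the filter, the 4 lowest p values of a list and the 3 genes most like a ligand. Some genes of the lists are not reported here.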

Additional observations from a re-analysis of the deposited data

Results flagged for a closer look

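Each set of CPM values tested here was 1 ligand in 1 group of 4 to 10 libraries. 12 of 80 sets had a highest or lowest library far from the others by Dixon's test. Chance gives this in about 1 in 20 single sets of independent normal values. The sets share libraries and their CPM are not adjusted for grp, so that rate is no measure for the 12 of 80. In the age series the outlying libraries were in Ccl12 in WT at 8 months (replicate 4, 148.8 CPM) and in SgshKO at 8 months (replicate 2, 46.5 CPM), Ccl6 in WT at 8 months (replicate 1, 105.9 CPM) and Cxcl16 in WT at 8 months (replicate 2, 33.1 CPM). In the WT ASO libraries all 6 were replicate 1: Ccl3 with ntc (49.0 CPM), Ccl12 with ntc (22.1 CPM) and the Tfe3 ASO (36.2 CPM), Ccl9 with the Mitf ASO (190.6 CPM) and the Tfeb ASO (237.5 CPM), and Ccl2 with the Tfe3 ASO (6.96 CPM). In SgshKO with ntc they were Cxcl10 (grp 2 replicate 2, 8.93 CPM) and Cxcl16 (grp 2 replicate 1, 94.35 CPM).

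The genotype difference itself differed between ages by the interaction term for Ccl6 (4 months minus 3 weeks, 1.11; 8 months minus 3 weeks, 0.95), for Cxcl16 (8 months minus 3 weeks, 1.08) and for Cxcl2 (8 months minus 3 weeks, 6.84, with 0 counts in WT at 8 months and the count filter passed through SgshKO), on the log2 scale.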

How the results depend on the processing

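Of 71 ligand calls over all comparisons, 31 were kept under every alternative run and 40 were lost under at least 1; of 87 results never called, 35 changed sign in at least 1. With the isolation covariate the number of ligands called went from 5 to 2 (WT, 4 months against 3 weeks), 7 to 4 (SgshKO, same ages), 5 to 2 (WT, 8 against 4 months), 5 to 1 (SgshKO, 8 against 4 months), 3 to 5 (genotype difference, 8 months against 3 weeks; also 5 with DESeq2), 2 to 1 (Tfe3 ASO against ntc) and 4 to 2 (combination), and the Ccl4 change in SgshKO from 4 to 8 months turned to 0.0410. The genotype difference of 4 months against 3 weeks gave 2 in place of 1 with DESeq2 and the 3 limma fits, WT at 8 months against 3 weeks 5 in place of 3 with no filter, SgshKO at those ages 5 in place of 8 without the neutrophil-high pair, and Tfeb ASO against ntc 1 in place of 0 with DESeq2, both limma fits or without grp 1. Without grp 1 the Tfe3 ASO gave 1.

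With the replicate block, which in the age series rests on shared numbers only, 4, 3 and 8 ligands were called between genotypes at the 3 ages, and 2 in place of 5 in SgshKO from 4 to 8 months; it gave 4 for the combination. With no replicate block in the WT ASO libraries the count was 1 in place of 4 (Mitf), 0 in place of 2 (Tfe3), 1 in place of 3 (Mitf against Tfe3), 0 in place of 2 (Mitf against Tfeb) and 0 in place of 3 (Tfeb against Tfe3), and with no grp term 2 in place of 4 for the combination.

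Leaving out 1 library gave 4 to 4, 1 to 3 and 8 to 10 calls between genotypes at the 3 ages. Genotype differences between ages gave 0 to 2 (4 months against 3 weeks), 2 to 4 (8 months against 3 weeks) and 0 to 0 (8 against 4 months). Age comparisons in WT gave 4 to 5, 2 to 4 and 2 to 5, and in SgshKO 5 to 6, 5 to 8 and 2 to 5, in the same order of ages. ASO comparisons gave 0 to 0 (ntc against PBS), 2 to 4 (Mitf), 0 to 1 (Tfeb), 1 to 2 (Tfe3), 1 to 3 (Mitf against Tfe3), 2 to 3 (Mitf against Tfeb), 2 to 4 (Tfeb against Tfe3) and 3 to 5 (combination). Ccl12 at 8 months ran from -1.12 (without WT replicate 1) to 0.0906 (without WT replicate 4). Cxcl2 had 1 and 0 counts in WT at 4 and 8 months, and the 4-month groups hold 2 libraries each. The cause of these shifts was not tested.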
